A study of Mus musculus with 6 samples.

Results

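The hedgehog genes described here are 9 transcripts of the hedgehog pathway in C2C12 cells, an established line of mouse myoblasts: the receptors and ligand-binding genes Ptch1, Hhip, Boc and Cdon, the signal transducer Smo, the inhibitor Sufu, and the GLI transcription factor genes Gli1, Gli2 and Gli3. They were found by their GENCODE M21 symbols among the 23154 gene IDs of each count table, and all 9 were present. The set was chosen by a measured value as well as by function, since Gli2 is among the largest falls of the comparison. Its levels and those of the other 8 members in that comparison are therefore given as a description, without p-values, and support nothing further.

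Both groups were stable C2C12 lines carrying a pINDUCER20b construct, which expresses its insert when doxycycline is present. In 1 line the insert was NUR77 with an HA tag, a nuclear receptor whose gene is Nr4a1, and in the other it was GFP. Both lines received doxycycline at 1 µg/mL for 18 hours, starting 24 hours after seeding, and each of the 3 replicates per line was 1 dish. The labels name 1 line per construct and do not say whether it was clonal, so a difference between the lines and an effect of the construct cannot be told apart. The growth protocol given with the GFP samples names the HA-NUR77 line, whereas their titles and modification labels name GFP, and the titles set the groups here. Dishes of 1 line share their origin, so the spread between replicates is that of dishes and library preparation.

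Libraries held 13906096 to 22821446 counts. Nr4a1, the mouse gene of the induced receptor, stood at 22.6, 19.4 and 25.5 CPM (reads per 1000000, on scaled library totals) in the HA-NUR77 libraries and 19.4, 13.5 and 28.2 CPM in the GFP libraries, and it was not called different (edgeR adjusted p = 0.698). It does not check the labels, since no source used here names the species of the insert. A gene is called below when the edgeR quasi-likelihood fit over all 12509 genes tested gives it a Benjamini-Hochberg adjusted p under 0.05. In that fit 25.6% of all genes were called, 12.4% higher and 13.2% lower in HA-NUR77.

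Hedgehog proteins are secreted ligands that bind PTCH1, a membrane receptor that holds SMO inactive while no ligand is bound. BOC and CDON are cell-surface co-receptors for the ligand, and HHIP binds the ligand and keeps it from signalling. Once SMO is active, it acts through the primary cilium to free the GLI proteins from SUFU, with GLI2 serving mainly as an activator of target genes and GLI3 mainly as a repressor. Gli1, Ptch1 and Hhip are themselves well-known target genes of the pathway. In the mouse embryo, hedgehog signals take part in starting the muscle programme in somites, and CDON and BOC also promote the differentiation of myoblasts.

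The largest change downward and the largest upward among the members lay in Gli2 and Hhip, and the bases upstream of their annotated starts are shown because these genes moved in opposite directions. Each run holds the 250 bases before the RefSeq start of the gene on GRCm38.p6, read 5′ to 3′ on the gene's strand, with CpG dinucleotides in capitals. The Gli2 run lies at chr1:119053620-119053869 and the Hhip run at chr8:80058009-80058258, both on the minus strand.
Gli2: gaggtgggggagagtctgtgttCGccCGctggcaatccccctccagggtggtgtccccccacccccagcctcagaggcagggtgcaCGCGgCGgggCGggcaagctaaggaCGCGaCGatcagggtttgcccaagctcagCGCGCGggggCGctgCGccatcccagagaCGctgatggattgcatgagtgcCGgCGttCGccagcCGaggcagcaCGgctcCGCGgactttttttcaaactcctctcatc
Hhip: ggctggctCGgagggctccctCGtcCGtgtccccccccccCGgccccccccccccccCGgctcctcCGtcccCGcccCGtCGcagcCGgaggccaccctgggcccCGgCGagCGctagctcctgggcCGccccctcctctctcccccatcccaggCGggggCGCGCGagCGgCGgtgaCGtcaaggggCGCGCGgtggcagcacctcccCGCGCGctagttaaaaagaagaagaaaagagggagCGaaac
Both runs are rich in CpG, with 22 such pairs for Gli2 and 28 for Hhip. Over the full promoter window of 300 bases, which includes 50 bases after the start, the counts were 28 and 30, against a median of 7 over 32851 windows of all genes. Fewer CpG pairs were found in 85.8% of all windows than in that of Gli2, and in 88.3% than in that of Hhip. Among the other members, the windows of Ptch1 (47) and Gli3 (39) held more than either. Those of Smo (17), Sufu (12) and Cdon (3) held fewer. RefSeq windows were matched by symbol for 7 of the members, namely Gli2, Smo, Hhip, Cdon, Gli3, Ptch1 and Sufu. They were searched on both strands for the GLI site GACCACCCA, the site AAAGGTCA bound by NR4A receptors as monomers (NBRE) and the YY1 site AANATGGCG, none of which contains another. None of the 7 windows held any of the 3 motifs, which occurred in 0.253%, 1.51% and 2.38% of all windows. This says only that these letters are not in these windows. For Cdon, Ptch1 and Gli3 the bases before the RefSeq start lay inside the gene as annotated by GENCODE M21. Those of Cdon were at chr9:35451826-35452075, in a plus-strand gene that starts at 35421128. Those of Ptch1 were at chr13:63565736-63565985, in a minus-strand gene whose first base is 63573598.

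Of the 9 members, 4 were called lower in the HA-NUR77 libraries (Gli2, Gli3, Smo and Boc), 1 was called higher (Hhip), and Gli1, Ptch1, Sufu and Cdon were not called. In such bulk samples, fewer cells that express a gene and less RNA per cell cannot be told apart. Over all genes 13.2% were called lower and 12.4% higher, and since the set was chosen in this same contrast nothing is read from the comparison. The median fitted log2 fold change of the members was −0.39, beside 0.01 over all genes tested. The HA-NUR77 libraries lay below all GFP libraries without overlap for 6 members and above them for 1, against 22.5% and 23.0% of all genes tested and 45.6% in either direction. All 9 passed the filter on low counts, Hhip only through its reads in the HA-NUR77 libraries, and a gene that passes in this way has to differ.

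**Figure D1:**
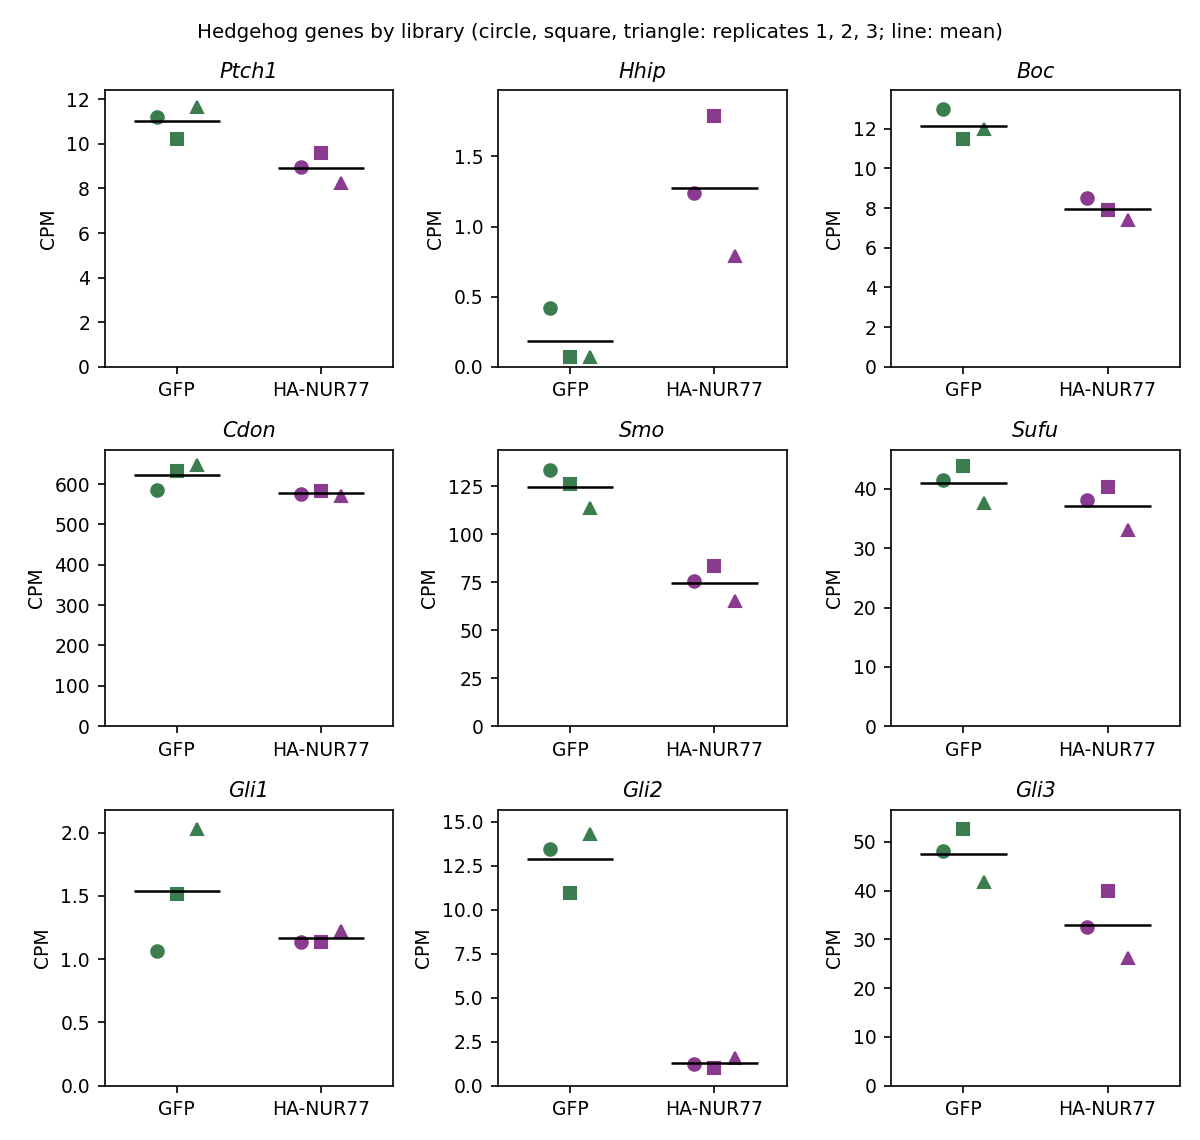
CPM of each member (vertical axes, each starting at 0) in the GFP and HA-NUR77 libraries; points are libraries, shaped by replicate number, and lines are group means of 3. Gli2 stands at 10.9 to 14.3 CPM in GFP and at 1.00 to 1.58 CPM in HA-NUR77, Hhip is the one gene that stands higher in HA-NUR77, and only Gli1 and Sufu overlap between the groups.

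**Figure D2:**
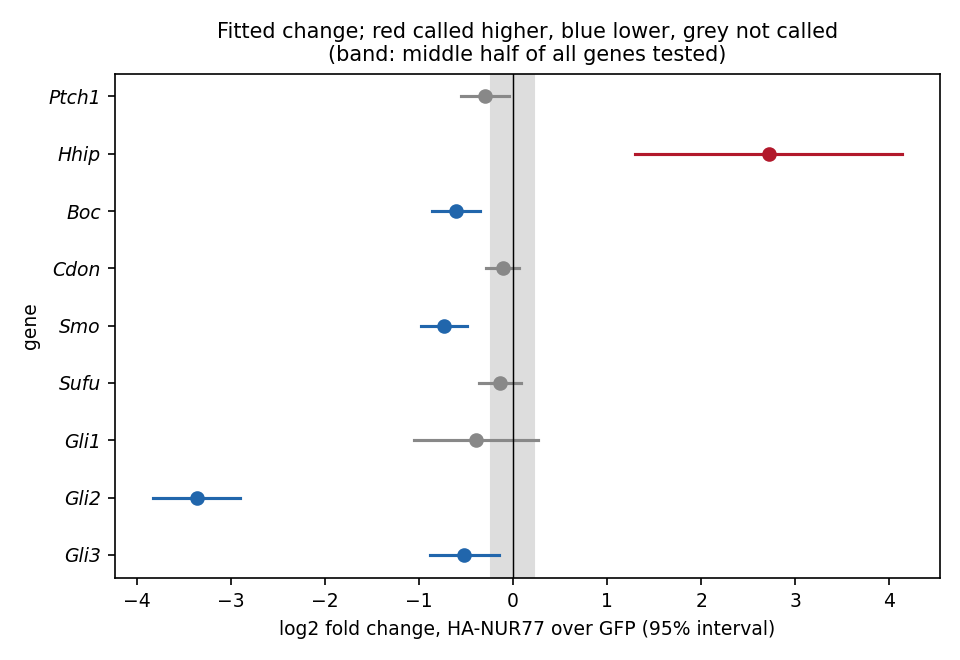
Fitted log2 fold change of HA-NUR77 over GFP (horizontal axis) with its 95% interval for each member; the grey band spans the quartiles of all genes tested, from −0.24 to 0.22. Gli2 (−3.36) and Hhip (2.72) lie far outside the band, and the interval of Ptch1 leaves out 0 although the gene is not called after adjustment over all genes.

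Among the GLI genes Gli2 fell the most, Gli3 fell less, and Gli1 was not called. Gli2 (ENSMUSG00000048402; GRCm38 chromosome 1, 118834132 to 119053619, minus strand) encodes the main activating GLI factor. It had 24, 23 and 22 reads in the HA-NUR77 libraries and 227, 159 and 211 in the GFP libraries, or 1.24, 1.00 and 1.58 CPM against 13.5, 10.9 and 14.3 CPM. All HA-NUR77 libraries were close to each other and far below every GFP library. The group means were 1.28 ± 0.289 and 12.9 ± 1.75 CPM (SD, n = 3). The fitted difference of −3.36 in log2 (SE 0.20) was the 18th lowest of all genes tested. From summed reads, scaled by depth, GFP exceeded HA-NUR77 by 10.4 times (exact binomial 95% interval 8.12 to 13.6, counting error only).

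Gli3 (ENSMUSG00000021318; chromosome 13, 15463235 to 15730026, plus strand), which encodes the GLI protein best known as a repressor, stood at 32.6, 40.0 and 26.2 CPM in HA-NUR77 and 48.0, 52.6 and 41.7 CPM in GFP. The groups did not overlap, but the highest HA-NUR77 library came close to the lowest GFP library, and in both groups the lowest library was replicate 3. Its log2 fold change was −0.52 (SE 0.16). The call depended on single libraries: leaving out replicate 1 (−0.51) or 3 (−0.38) of HA-NUR77, or replicate 1 (−0.51) or 2 (−0.44) of GFP, ended it, as did library totals only, upper-quartile factors or no filter. Gli1 (ENSMUSG00000025407; chromosome 10, 127329882 to 127341974, minus strand), an activating GLI factor and a target of the pathway, had 22, 26 and 17 reads against 18, 22 and 30. The libraries of the groups overlapped, and the log2 fold change of −0.39 (SE 0.28; 95% interval −1.05 to 0.26) was not called at this depth. It was −0.15 without GFP replicate 3 and −0.61 without GFP replicate 1.

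Levels of different genes are compared here only as RPKM, the CPM divided by the kilobases of annotated exon. Gli2 made up 27.3%, 21.5% and 30.4% of the summed RPKM of the GLI genes in GFP replicates 1, 2 and 3, and 4.74%, 3.22% and 7.17% in the HA-NUR77 libraries. Gli3 made up 69.2 ± 5.38% in GFP and 88.8 ± 3.32% in HA-NUR77 (SD, n = 3), and Gli1 the small rest. The shares of Gli2 and of Gli3 did not overlap between the groups, whereas those of Gli1 did. The summed GLI level was 7.18, 7.38 and 6.83 RPKM in GFP and 3.81, 4.54 and 3.21 RPKM in HA-NUR77.

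**Figure D3:**
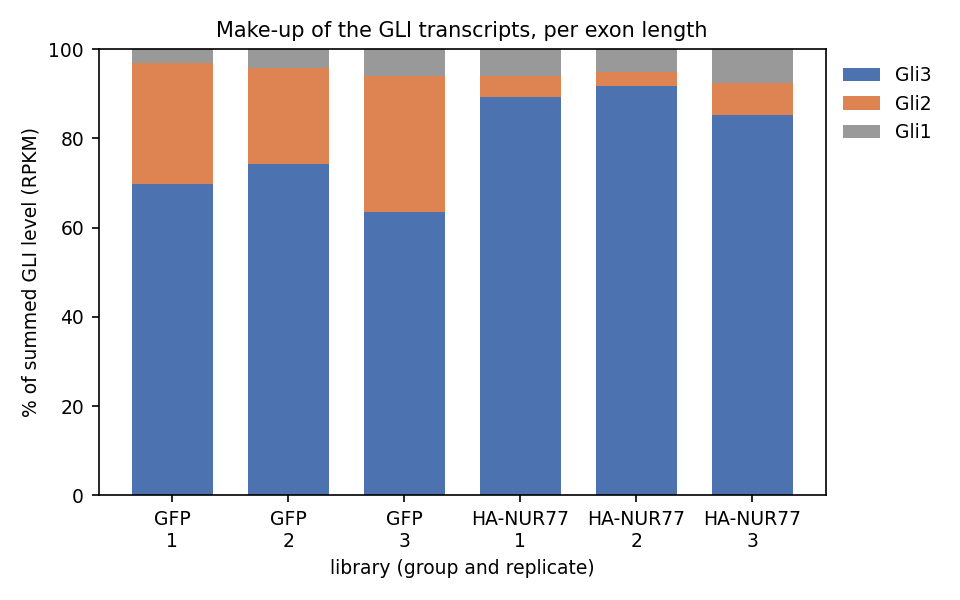
Share of each GLI gene in the summed RPKM of Gli1, Gli2 and Gli3 (vertical axis, %), 1 bar per library. The Gli2 share is 21.5% to 30.4% in the GFP libraries and 3.22% to 7.17% in the HA-NUR77 libraries, with Gli3 filling most of the difference.

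The signal transducer fell and its inhibitor downstream was not called. Smo (ENSMUSG00000001761; chromosome 6, 29735503 to 29761365, plus strand), the 7-pass membrane protein that carries the signal inward, stood at 75.6, 83.4 and 65.0 CPM in HA-NUR77 and 134, 126 and 114 CPM in GFP. Every HA-NUR77 library was well below every GFP library, and the change was 1.66-fold (log2 −0.74, SE 0.11). Sufu (ENSMUSG00000025231; chromosome 19, 46396896 to 46488804, plus strand), which holds GLI proteins in the cytoplasm, stood at 38.1, 40.3 and 33.0 CPM against 41.5, 43.8 and 37.7 CPM. The groups overlapped, with a log2 fold change of −0.14 (SE 0.10; 95% interval −0.37 to 0.09).

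Of the co-receptors, Boc fell and Cdon, by far the most abundant member, was not called. Boc (ENSMUSG00000022687; chromosome 16, 44485049 to 44558897, minus strand) stood at 8.53, 7.90 and 7.40 CPM in HA-NUR77 and 13.0, 11.5 and 12.0 CPM in GFP, a gap wider than the range within either group (log2 fold change −0.61, SE 0.11). Cdon (ENSMUSG00000038119; chromosome 9, 35421128 to 35507652, plus strand) stood at 576, 584 and 571 CPM against 586, 632 and 648 CPM. The groups did not overlap, yet GFP replicate 1 lay close to the HA-NUR77 libraries, and the log2 fold change was −0.11 (SE 0.08; 95% interval −0.28 to 0.07). Per exon length, Cdon exceeded Boc by 39.0, 42.6 and 44.5 times in HA-NUR77 and by 26.0, 31.8 and 31.2 times in GFP.

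Of the ligand-binding genes that are also pathway targets, Hhip was called higher and Ptch1 was not called. Hhip (ENSMUSG00000064325; chromosome 8, 79965851 to 80058006, minus strand), the hedgehog-interacting protein, had 24, 41 and 11 reads in the HA-NUR77 libraries and 7, 1 and 1 in the GFP libraries. Every HA-NUR77 library was above every GFP library, but all counts were low, and 7 of the 9 GFP reads lay in replicate 1. The depth-scaled ratio of summed reads was 7.0 (exact binomial 95% interval 3.50 to 15.9, counting error only), and the fitted log2 fold change was 2.72 (SE 0.61). The fitted value was 4.13 without GFP replicate 1, and leaving out HA-NUR77 replicate 1 (2.75) or GFP replicate 2 (2.36) ended the call. Ptch1 (ENSMUSG00000021466; chromosome 13, 63508328 to 63573598, minus strand), the receptor, stood at 8.95, 9.61 and 8.26 CPM against 11.2, 10.2 and 11.6 CPM. The groups did not overlap, and the log2 fold change of −0.30 (SE 0.11) was not called. With the replicate number as a block, a fit that calls 48.1% of all genes, Ptch1 was called lower (−0.30), and this was the one member whose call the block changed. Gli1, the third target among the members, is described above with its overlapping groups.

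By replicate number, 7 members (Gli2, Gli3, Ptch1, Smo, Sufu, Boc and Cdon) stood lower in the HA-NUR77 library than in the GFP library of the same number in all 3 cases, Hhip stood higher in all 3, and Gli1 was split. Of all genes tested, 34.8% stood lower and 35.5% higher in all 3, and nothing is read from the members' count. For Gli2 these differences were −3.32, −3.30 and −3.08 on the log2 CPM scale with a prior count of 2, for Smo −0.82, −0.60 and −0.81, and for Boc −0.60, −0.53 and −0.69. For Sufu they were −0.12, −0.12 and −0.19, small but alike. Hhip differed most between numbers, at 1.35, 3.36 and 2.29.

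Ordered by RPKM in the GFP libraries, the members ran Cdon (80.6 ± 4.20, SD, n = 3), Smo (22.1 ± 1.78), Sufu (5.33 ± 0.402), Gli3 (4.95 ± 0.572), Boc (2.73 ± 0.174), Gli2 (1.88 ± 0.255), Ptch1 (0.777 ± 0.0509), Gli1 (0.308 ± 0.0964) and Hhip (0.0203 ± 0.0221). Of the neighbours in this order, only Sufu and Gli3 overlapped between their libraries. In HA-NUR77 the order was the same except that Gli2 (0.186 ± 0.0421) came after Ptch1 (0.630 ± 0.0476) and Gli1 (0.233 ± 0.00974). There the libraries of Gli2 overlapped with those of Gli1 above it and of Hhip (0.140 ± 0.0552) below it. Among all genes tested, Cdon stood above 96.3% in GFP, and Gli2 above 23.7% in GFP and 2.51% in HA-NUR77. Within each library Smo exceeded Ptch1, by 21.3, 21.9 and 19.9 times in HA-NUR77 and 30.1, 31.1 and 24.7 times in GFP. Exon lengths are unions over annotated isoforms, so these levels depend on which isoforms the cells use.

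**Figure D4:**
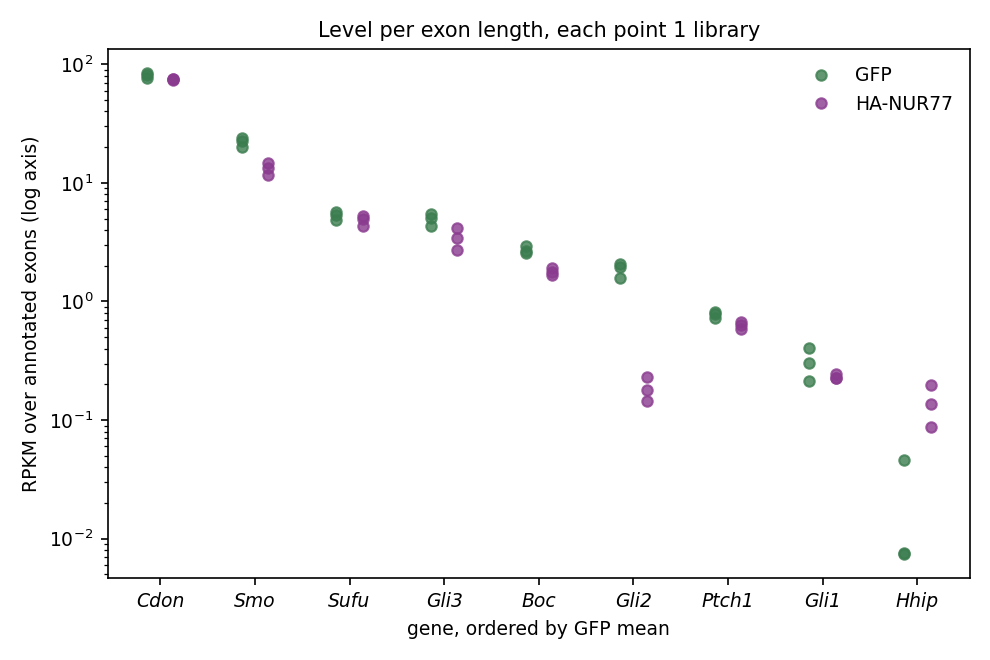
RPKM over annotated exons (vertical log axis) of each member, ordered by its GFP mean, with 1 point per library. Gli2 stands between Boc and Ptch1 in the GFP libraries and between Gli1 and Hhip in the HA-NUR77 libraries, where its points overlap with those of both.

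The genes whose profile lay closest to that of Gli2 were not pathway genes. Likeness was the root mean square difference, over the 6 libraries, of log2 CPM relative to the GFP mean, for the 11474 tested genes that averaged 1 CPM or more in whichever group was higher. The nearest were Spats2l (0.19), the metalloprotease gene Adamts16 (0.23), Kank4 (0.26), the collagen receptor integrin gene Itga11 (0.28) and Ctsc, which encodes the protease cathepsin C (0.31). Spats2l had 126, 89 and 81 reads in HA-NUR77 and 947, 701 and 714 in GFP. Adamts16 stood at 17.5 ± 2.83 CPM against 164 ± 17.6 CPM (SD, n = 3), and Itga11 at 12.7 ± 1.54 against 111 ± 11.8 CPM. Kank4 had 0 reads in every HA-NUR77 library and 23, 15 and 19 in GFP, and Ctsc stood at 0.509 ± 0.0692 against 4.55 ± 1.23 CPM. A like fall is what the measure selects, and for Kank4, with no read in HA-NUR77, the size of the fall is not known. Kank4 and Ctsc passed the filter on low counts only through their GFP reads.

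The genes tested around Gli2 went in both directions. Within 1 Mb of Gli2, a window set after its values were seen, 10 other genes were tested. Of these, 2 were called higher, 2 lower and 6 were not called, beside 12.4% higher and 13.2% lower over all genes. Nothing is read from so few genes. The closest, Clasp1, at 221 kb, had a log2 fold change of 0.10. Those called were Inhbb, a subunit of activin (−1.19), Ptpn4, a tyrosine phosphatase (−0.68), Epb41l5 (1.54) and the secretin receptor gene Sctr (0.91). Around Hhip, all 9 genes tested within 1 Mb were not called, where 25.6% of all genes were called. Annotated exons of other genes on the opposite strand shared 1.93% of the exon bases of Hhip, 1.96% of those of Gli3 and, in the largest single overlap, 5.31% of those of Gli1, and without the strand setting of the counting, reads there cannot be assigned with certainty.

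Reads of the ligands themselves were few, and Hhat and Disp1, which act in ligand processing and release, fell. Of 9 genes listed for ligands and release, 8 were in the tables and 3 passed the filter. Of those 3, 2 were called lower, beside 13.2% of all genes. The list was chosen with earlier results of these data known, so nothing is read from this count. Ihh had 15 reads and Dhh 7 reads over all 6 libraries, and Shh was not analysed here. Hhat, the acyltransferase that adds palmitate to hedgehog, fell from 6.20 ± 0.761 to 2.54 ± 0.417 CPM (SD, n = 3; adjusted p in edgeR of 0.00337), and Disp1, which releases the lipid-bearing ligand, from 67.9 ± 6.78 to 40.8 ± 4.11 CPM (adjusted p = 0.00331). Disp2 was not called (log2 fold change 0.66, SE 0.24, adjusted p = 0.0777; called higher with the replicate block, adjusted p = 0.0133). The carriers Scube1, Scube2 and Scube3 had 3, 38 and 9 reads in all; the reads of Scube3 were 3 in each GFP library and 0 in HA-NUR77.

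Several further genes of hedgehog reception fell. Of 16 listed, 11 were tested, of which 7 were called lower, beside 13.2% of all genes. This list too was chosen with earlier results of these data known, so its count is a description and nothing is read from it. The other 4 (Mgrn1, Grk2, Arrb2 and Mosmo) were not called. The median log2 fold change of the genes tested was −0.54. Gpc6, a cell-surface glypican, fell the most, from 42.5 ± 2.13 to 12.7 ± 1.36 CPM (adjusted p in edgeR of 9.51e-05). Gas1, a co-receptor alongside Boc and Cdon, stood at 57.7 ± 3.06 against 88.7 ± 18.3 CPM (adjusted p = 0.018). Evc (log2 fold change −0.70, adjusted p = 0.0104) and Evc2 (−0.71, adjusted p = 0.0207), which relay the SMO signal at the base of the cilium, and Gpr161, a ciliary receptor that restrains the pathway (−0.60, adjusted p = 0.00836), fell as well. So did Atp6ap2 (−0.54, adjusted p = 0.00226), which stood above 100 CPM. Mgrn1, a ubiquitin ligase gene, was not called (0.12, adjusted p = 0.237).

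The kinases, ubiquitin ligases and scaffolds that process GLI proteins were called about as often as genes in general. All 19 listed were tested, 3 were called higher, 2 lower and 14 were not called, which is 26.3% called beside 25.6% of all genes, with a median log2 fold change of −0.01 beside 0.01 over all genes. Prkar2a, a regulatory subunit of protein kinase A, rose from 112 ± 8.66 to 164 ± 8.92 CPM (edgeR adjusted p = 0.00381), Ulk3, a kinase, rose by a log2 of 0.43 (adjusted p = 0.018), and Spop, an adaptor for GLI degradation, by 0.28 (adjusted p = 0.0474). Cul1, a ubiquitin ligase scaffold (log2 fold change −0.36, adjusted p = 0.0232), and Prkacb, a catalytic subunit of protein kinase A (−0.27, adjusted p = 0.0193), fell. The other members above 100 CPM, namely Prkaca, Prkar1a, Csnk1a1, Csnk1d, Csnk1e, Gsk3b, Fbxw11, Cul3 and Itch, had log2 fold changes from −0.22 to 0.18 and were not called; with the replicate block Csnk1a1 (adjusted p = 0.00641) and Itch (adjusted p = 0.0281) were called lower and Prkaca (adjusted p = 0.0485) higher. Kif7, the ciliary scaffold, stood at a log2 fold change of −0.36 (SE 0.17, adjusted p = 0.154).

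Genes described as GLI targets in other tissues went in both directions. Of 20 listed, 12 were tested, of which 4 were lower and 4 higher, beside 13.2% and 12.4% of all genes. Nothing is read from these counts, since the list was chosen with earlier results of these data known. Bmp4, a secreted growth factor, had 58, 69 and 44 reads in HA-NUR77 and 290, 280 and 295 in GFP, for a difference of −2.62 in log2 (SE 0.11; adjusted p in edgeR of 4.51e-05). Foxf2, a forkhead factor of mesenchyme, had 26, 27 and 13 reads against 105, 112 and 85 (−2.48, SE 0.21, adjusted p = 0.000341). In both genes every HA-NUR77 library was far below every GFP library. Snai1 (−0.73, adjusted p = 0.00387), a transcriptional repressor, and Bcl2 (−0.49, adjusted p = 0.0106), which restrains cell death, were also lower. The cell cycle genes Ccnd1 (log2 fold change 1.84, adjusted p = 0.00268), Ccnd2 (0.73, adjusted p = 0.00999) and Cdk6 (0.40, adjusted p = 0.0367) and the Notch ligand gene Jag2 (0.33, adjusted p = 0.0462) were higher. Foxl1, Foxc2, Ccne1 and Myf5 were not called, with log2 fold changes of −0.25, −0.38, 0.29 and −0.23, and Myf5 was called lower with the replicate block (adjusted p = 0.0477). Foxf1, Foxd1, Mycn, Sfrp1 and Nkx3-2 had 4, 7, 13, 15 and 1 reads in all and were not tested.

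**Figure D5:**
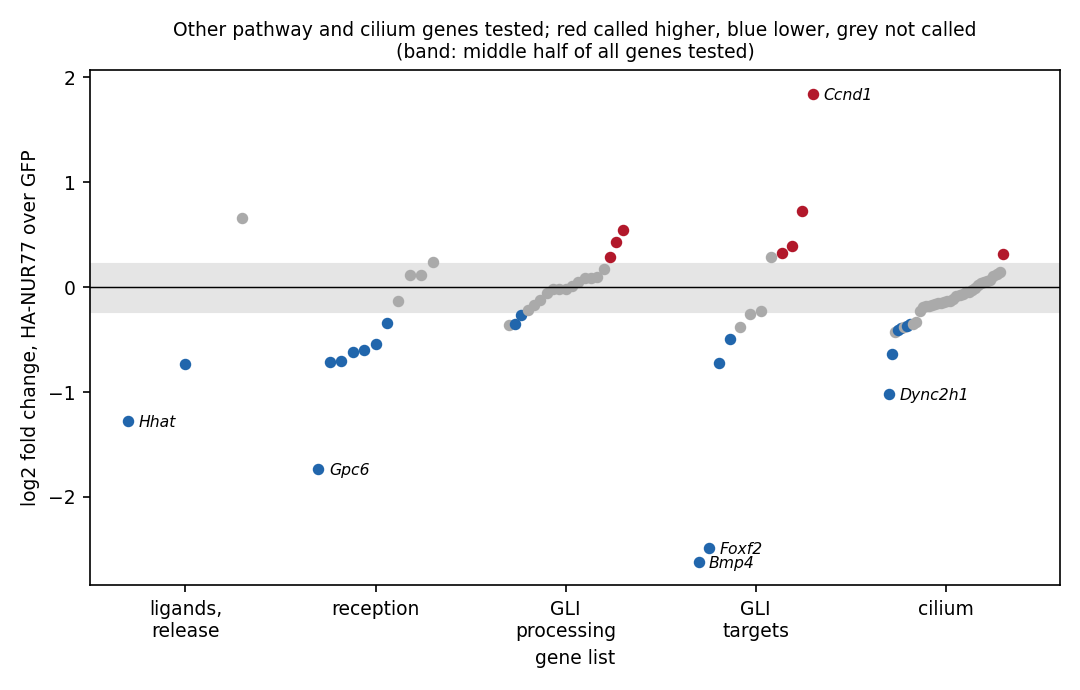
Fitted log2 fold change of HA-NUR77 over GFP (vertical axis) for each tested gene of the 4 further pathway lists and the cilium list, 1 point per gene, sorted within a list; the grey band spans the quartiles of all genes tested. Points of the reception list lie mostly below 0, led by Gpc6, and the target list holds both the lowest points, Bmp4 and Foxf2, and the highest, Ccnd1.

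Over these 4 lists together, 45 of 60 distinct genes present were tested. Of these, 15 were called lower and 7 higher, beside 13.2% and 12.4% of all genes. These lists and the cilium list below were chosen with earlier results of these data known, so nothing is read from their counts. Leaving out replicate 1 of either line left 3 genes higher, and leaving out GFP replicate 2 or GFP replicate 3 left 4, while the number lower ran from 11 to 16 in the fits without 1 library.

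Hedgehog signalling through the primary cilium depends on genes of intraflagellar transport, of the transition zone and of other parts of the cilium and its base. All 38 listed were tested: 6 fell, 1 rose and 31 were not called, which is 18.4% called beside 25.6% of all genes, with a median log2 fold change of −0.14. Ift74, of the intraflagellar transport B complex, fell from 44.1 ± 3.23 to 28.5 ± 1.19 CPM (SD, n = 3; adjusted p in edgeR of 0.00215), and Dync2h1, the motor of retrograde transport, from 26.5 ± 7.31 to 13.2 ± 3.44 CPM (adjusted p = 0.0248). Cep164 (log2 fold change −0.41, adjusted p = 0.0175), Wdr19 (−0.39, adjusted p = 0.0268), Tulp3 (−0.35, adjusted p = 0.0282) and Tctn2 (−0.37, adjusted p = 0.0334) fell, and Ift43 rose (0.32, adjusted p = 0.0156). Kifap3, the one member above 100 CPM, stood at −0.07 (adjusted p = 0.618). With the replicate block, which calls 48.1% of all genes, 12 were lower. Leaving out replicate 1 of either line left 1 gene lower, leaving out replicate 2 of either line left 3, and Ift43 was not called once HA-NUR77 replicate 1 was left out.

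Markers of the labelled cell type were present in every library, and some markers of muscle and of mesenchymal cells were called, beside 12.4% of all genes called higher and 13.2% lower. Of 7 myoblast markers 3 were called higher (Itga7, Cdh15 and Msc, by log2 fold changes of 0.72, 0.54 and 1.72). The summed level of the 7 was 5699 to 6480 CPM in HA-NUR77 and 3572 to 4788 CPM in GFP, led by Des. Myf5, which is also in the target list, was not called, but was called lower with the replicate block (edgeR adjusted p = 0.0477). Of 14 markers of differentiated muscle 2 were called higher (Myh8, 0.79, and Myh3, 0.62) and 12 were not called, among them Acta1, which led the sums of 22593 to 27901 against 15023 to 22364 CPM. Of 8 fibroblast and mesenchymal markers 5 were tested: Col1a1 (−2.39), Pdgfra (−0.98) and Col3a1 (−0.43) were lower and Ly6a (1.21) higher, with sums of 5571 to 6468 against 8083 to 9628 CPM, led by Col3a1, and 0 reads for Thy1 and Tcf21. Endothelial markers summed to 0.699 to 0.931 CPM against 0.406 to 1.30 CPM, with Tek, the one gene tested, not called (log2 fold change 0.14, edgeR adjusted p = 0.831) and 0 reads for Tie1. Immune markers summed to 2.66 to 3.83 against 1.72 to 2.91 CPM. Of the 2 tested, 1 was called higher (Csf1r, 1.71), and Ptprc had 1 read in each library. Csf1r had 36, 29 and 13 reads in HA-NUR77 and 2, 10 and 7 in GFP. Csf1r and Msc passed the filter on low counts only through their HA-NUR77 reads, so their calls are not read as a result. The part of these differences in the changes of the hedgehog genes was not tested.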

How the data were processed

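RNA was measured by polyadenylated RNA sequencing with a strand-specific kit in 6 libraries, 3 per line. The authors deposited whole-number read counts per Ensembl gene ID. Per the submitters' processing notes, TopHat2 2.1, HTSeq and DESeq2 were used with mm10; annotation release and strand setting are not given in the sources used here. Symbols and exon lengths came from GENCODE M21, which matched 22888 of 23154 IDs, and promoter sequences from RefSeq on GRCm38.p6. IDs of 3275 genes had no read.

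Genes were filtered with filterByExpr (minimum count 10), scaled by TMM, fitted over all 6 libraries by group and tested with the quasi-likelihood test of edgeR 4.0.16 (R 4.3.3), with Benjamini-Hochberg adjustment over 12509 genes and a threshold of 0.05. Standard errors are the log2 fold change over the root of the F statistic. On simulated counts the fit recovered most changed genes, with a share of false calls above the threshold. Calls near the threshold, such as those of Gli3, Spop and Jag2, are therefore less secure than the threshold states. CPM is the count divided by the library total times its TMM factor, per 1000000 reads. Alternatives were other size factors and filters, DESeq2 1.42.0, limma 3.58.1 (voom), a replicate block, and leaving out each library. Replicate numbers were paired only in the block fit and in the differences by replicate number, and every other fit was by group alone. They were paired there because deviations from the group means correlated within numbers 1, 2 and 3 (0.25, 0.55 and 0.47). This comes from the data and not from the labels. Library totals of 13906096 to 22821446 limit genes such as Gli1 and Hhip, and binomial intervals cover counting error only.

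Members and lists were chosen with earlier results of these data known. All 9 members are named; of each other pathway list up to 8 called genes by adjusted p and any of at least 100 CPM; of each marker list the most abundant and up to 3 called; and the 5 genes nearest to Gli2, leaving out unnamed models. Disp2, Kif7, the low-count genes and the uncalled targets were added after their values were seen. P-values set the difference between the groups against the spread between dishes, and do not cover variation between lines. Shh, Nkx2-2 and Nkx6-1 were not analysed here. Some listed genes are counted but not reported here by name.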

Additional observations from a re-analysis of the deposited data

How the results depend on the processing

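No fold change of a member changed sign under 14 alternatives, 6 of which left out a library. Gli2 ran from −3.52 to −3.20, Smo from −0.82 to −0.65 and Boc from −0.67 to −0.56, and each stayed called. All these fits use the libraries in which the set was chosen. That these genes stayed called therefore describes the processing and adds no support. With the replicate block 2942 genes were called higher and 3071 lower, of which 3196 were called in the same direction without it, and 12 cilium genes were lower. With a filter of 1 CPM in 3 libraries Hhip was not tested, so 0 members were higher. Without 1 library, genes higher ran from 642 (without GFP replicate 1) to 1489 and lower from 850 (without GFP replicate 1) to 1572; without HA-NUR77 replicate 1 they were 672 and 903, and without GFP replicate 2 the genes higher were 927. Members higher ran from 0 to 1 and lower from 3 to 4, other pathway genes higher from 3 to 6 and lower from 11 to 16, and cilium genes higher from 0 to 1 and lower from 1 to 5. Among the members and the other pathway genes, the block changed the calls of Ptch1, Disp2, Csnk1a1, Itch, Prkaca and Myf5 and no other. Myf5 is also a myoblast marker. Calls of markers and neighbours outside the pathway and cilium lists were not compared under the block. Depth limits Gli1 and Hhip, at under 100 reads per group.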
